A study of Arabidopsis thaliana with 48 samples.

Results

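The light response of roots was examined in MYC2-FLAG plants labelled −BFO, the label for growth without the bacterial, fungal and oomycete community called BFO. RNA sequencing libraries labelled Root, genotype myc2-Flag and not inoculated were taken, and the 3 libraries of the condition Shade (low photosynthetically active radiation, LP) were compared with the 3 libraries of the condition Normal (NC). These are 6 of the 48 libraries of the study, which cover shoots and roots of the mutant myc2-3 and of MYC2-FLAG under both light levels with and without the community. MYC2-FLAG is the mutant jin1-8 complemented with a FLAG-tagged MYC2 under the MYC2 promoter, so all 6 libraries share that background, and no untagged wild type was compared here. The plants were 5 weeks old and grew in the FlowPot system, in sterilized peat from which roots were washed before RNA extraction. One label on growth names Col-0 for all libraries, while the genotype label names the line.

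Roots do not photosynthesise to any large extent and live on sugars sent from the shoot. Light above ground therefore reaches them mainly through sugar supply, hormones and mobile regulators. MYC2 is a basic helix-loop-helix transcription factor of jasmonate signalling that is held inactive by JAZ repressor proteins, and abscisic acid (ABA) is the hormone of water deficit, whose signalling is restrained by clade A protein phosphatases 2C.

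Between 7408240 and 9273883 reads per LP library and between 7302606 and 11045467 reads per NC library were counted on genes. LP libraries stood apart in the reads that were not assigned to a single place. Reads with more than 1 alignment made up between 5.32% and 5.90% of the LP columns, against between 1.86% and 2.88% of the NC columns, and between 1.89% and 4.61% of the columns of the other root libraries. Reads on no annotated feature made up between 2.58% and 2.66% in LP, against between 1.75% and 1.88% in NC and at most 2.57% in the other root libraries. Between 20841 and 21334 genes had a count in LP libraries, against between 21483 and 21913 in NC libraries. The part of these differences in the results below was not tested.

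MYC2 itself (AT1G32640) had 211, 159 and 180 CPM in LP roots, against 191, 205 and 110 CPM in NC roots. CPM are read counts scaled to a common library size. The groups overlapped, and the log2 fold change of LP over NC was 0.11 ± 0.32 (SE, n = 3 each, adjusted p = 0.857). MYC2 means in myc2-3 roots lay between 25.9 and 37.8 CPM, below every MYC2-FLAG root library here.

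The BFO labels of the roots did not pair across the genotypes, and this bears on every comparison with myc2-3 below. When the mean log2 profile of each root condition was centred within its genotype, LP −BFO roots of MYC2-FLAG correlated with LP +BFO roots of myc2-3 (r = 0.70 across 21098 genes) and not with LP −BFO roots of myc2-3 (r = -0.50). NC −BFO roots of MYC2-FLAG likewise correlated with NC +BFO roots of myc2-3 (r = 0.77) and not with NC −BFO roots of myc2-3 (r = -0.76). In both cases the best match had the same light label, but LP +BFO roots of MYC2-FLAG matched NC −BFO roots of myc2-3 (r = 0.70) more closely than LP −BFO roots (r = 0.58). Centring makes the conditions of each genotype cancel out for every gene, so the negative correlations are in part built in. Genes are not independent replicates and no p-value is given for these correlations. The summed level of the AZI1 group of lipid-transfer genes in shoots of myc2-3 was between 417 and 1143 CPM in libraries labelled +BFO, against between 33.1 and 179 CPM in those labelled −BFO. In MYC2-FLAG shoots it was between 756 and 1652 CPM in NC +BFO, against between 357 and 661 CPM in NC −BFO. Under LP it was between 58.3 and 107 CPM in +BFO, against between 259 and 330 CPM in −BFO. The authors report AZI1 among the defence genes that the community raised in Col-0 shoots under NC but not under LP. In myc2-3 shoots they report that this induction, AZI1 included, was kept under LP. Microbial reads were not analysed here, and whether any label was exchanged was not tested. The name −BFO is used here as the label gives it. The contrast between LP and NC within MYC2-FLAG does not use the BFO label of myc2-3. It does rest on the BFO labels of the MYC2-FLAG roots. If those had been exchanged, the roots described here would come from inoculated plants.

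**Figure D1:**
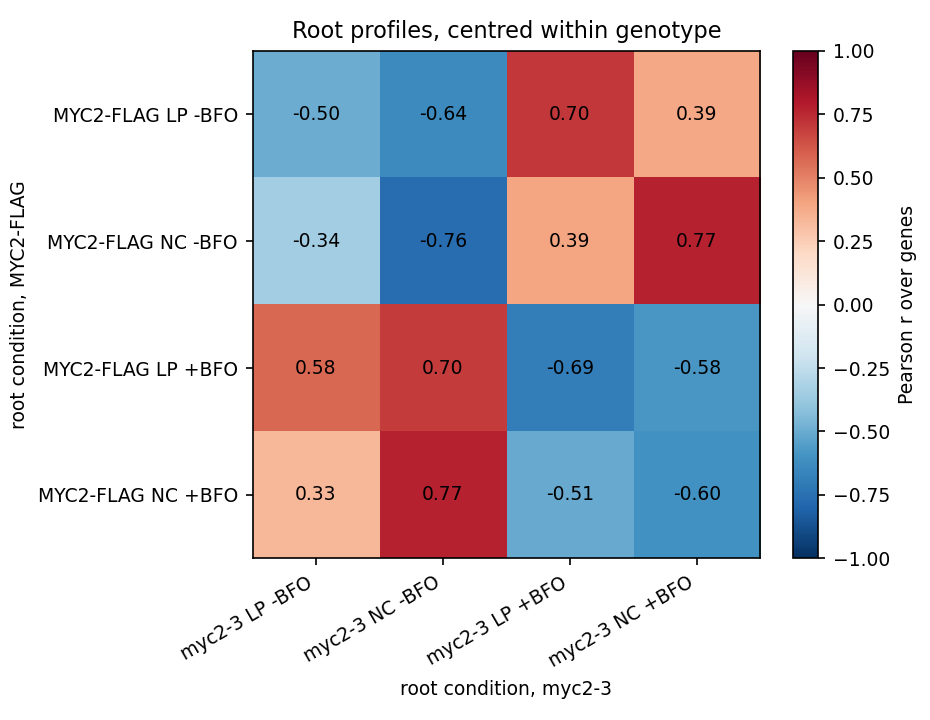
Pearson correlation over 21098 genes between the mean log2 profiles of the MYC2-FLAG root conditions (rows) and the myc2-3 root conditions (columns), centred within each genotype. Conditions labelled −BFO in MYC2-FLAG go with those labelled +BFO in myc2-3, with 0.70 for LP and 0.77 for NC.

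Low light was accompanied by a broad shift in both directions. Of 21098 genes tested, 947 were called (4.49%), meaning a change of at least 1 in either direction on the log2 scale with an adjusted p under 0.05, and 422 were higher and 525 lower in LP roots. Genes for photosystems and the Calvin cycle, jasmonate repressors, some lectins and 4 members of the AZI1 group of lipid-transfer proteins stood among the rises. ABA phosphatases, small heat-shock proteins, aquaporins and the sodium transporter HKT1 stood among the falls. The 3 LP and 3 NC libraries did not overlap for 382 of the higher and 449 of the lower genes, while over all genes tested 15.3% lay higher and 13.2% lower without overlap. The median log2 fold change of all genes was 0.01, that of the higher genes 1.53 and that of the lower genes -1.45, and 124 genes rose and 130 fell by at least 4-fold. Replicates are libraries that the labels number as separate samples. P-values and SEs rest on the spread between replicates pooled over all 16 conditions, shoots and myc2-3 included, and not on these 6 libraries alone. When only these 6 libraries were fitted, 540 genes were called, of which 518 were among the 947, and PIF4, STP14, NRT2.2, IRT1, WRKY46, GLU1 and RSL4, named below, were among those no longer called. In bulk roots, fewer cells of a type and less RNA per cell cannot be told apart.

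The 10 largest rises among genes without overlap and with 50 or more counts per library on average were led by AT4G19750, annotated as a glycosyl hydrolase with a chitinase insertion domain, the kind of enzyme that cleaves chitin. AT4G19750 had 34.5, 30.5 and 28.7 CPM in LP roots, against 0.185, 0.791 and 0.648 CPM in NC roots. Every LP library was far above every NC library, and the log2 fold change was 5.77 ± 0.59 (adjusted p = 2.03e-06). AT1G64710, annotated as a zinc-binding alcohol dehydrogenase, had 14.6, 18.6 and 25.2 CPM in LP roots, against 0.923, 1.29 and 1.30 CPM in NC roots (log2 fold change 4.04 ± 0.37). ATCG00020, a locus of the chloroplast genome, had 22.6, 11.5 and 12.2 CPM in LP roots, against 1.66, 1.01 and 0.648 CPM in NC roots (log2 fold change 3.76 ± 0.49).

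The next rises were of genes with little known function and of enzymes. AT1G09310, which carries a domain of unknown function, had 36.3, 15.5 and 30.5 CPM in LP roots, against 2.12, 3.24 and 4.32 CPM in NC roots. AT1G15125, annotated as a methyltransferase, had 40.5, 58.7 and 65.6 CPM in LP roots, against 10.5, 6.11 and 3.89 CPM in NC roots. Their log2 fold changes were 3.09 ± 0.47 and 3.00 ± 0.33. AT4G27300, annotated as an S-locus lectin receptor kinase, rose by 2.93 ± 0.35 on the log2 scale. CYP710A3, of a cytochrome P450 family that acts on sterols, had a log2 fold change of 2.88 ± 0.45, and 3.84 without NC replicate 2. The uncharacterized AT5G42530 had 3.02 ± 0.47, and 4.19 without the same library. ECS1 had 49.8, 72.9 and 30.7 CPM in LP roots, against 6.18, 10.1 and 4.32 CPM in NC roots (log2 fold change 2.85 ± 0.36). In LP shoots of the same line ECS1 averaged 946 CPM. There AT1G15125 averaged 1033 CPM, AT1G09310 864 CPM, AT5G42530 542 CPM and AZI1, described below, 253 CPM. AT4G27300 averaged 149 CPM, AT1G64710 111 CPM and ATCG00020 41.9 CPM in these shoots, whereas AT4G19750 and CYP710A3 had 0 counts.

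The largest fall by the same rule was that of TIP2;3 (AT5G47450), a water and ammonia channel of the vacuolar membrane. TIP2;3 had 7.27, 14.8 and 19.3 CPM in LP roots, against 136, 171 and 185 CPM in NC roots. The log2 fold change was -3.56 ± 0.31 (adjusted p = 2.51e-09), and no LP library came near the NC range. HKT1, which withdraws sodium from the xylem, had 1.59, 2.82 and 2.13 CPM in LP roots, against 16.9, 27.0 and 25.5 CPM in NC roots (log2 fold change -3.38 ± 0.27, adjusted p = 3.24e-11, the smallest of the genes tested). HAI1, a clade A protein phosphatase 2C, had 1.36, 1.31 and 1.21 CPM in LP roots, against 8.95, 12.9 and 10.6 CPM in NC roots (log2 fold change -3.06 ± 0.35). The LP libraries of HAI1 lay close together.

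The other leading falls included secondary metabolism and storage genes. BGLU28, a beta-glucosidase known from sulfur deficiency, had 1.48, 2.82 and 4.45 CPM in LP roots, against 12.8, 19.1 and 24.3 CPM in NC roots (log2 fold change -2.64 ± 0.27). VSP2, a vegetative storage protein gene that jasmonate induces in leaves, had 3.86, 4.88 and 12 CPM in LP roots, against 23.2, 32.0 and 49.6 CPM in NC roots. Its log2 fold change was -2.31 ± 0.37, and -2.98 without LP replicate 3. AT3G32030, annotated as a terpenoid cyclase, had -2.26 ± 0.31, and -3.04 without the same library. The membrane protein gene AT4G31330 and AT4G39795, of a family with a domain of unknown function, fell with log2 fold changes of -2.56 ± 0.24 and -2.20 ± 0.29. RD28, a plasma membrane aquaporin, and AIR1, named for its induction by auxin in root cultures, closed the group with -2.21 ± 0.22 and -2.15 ± 0.35.

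**Figure D2:**
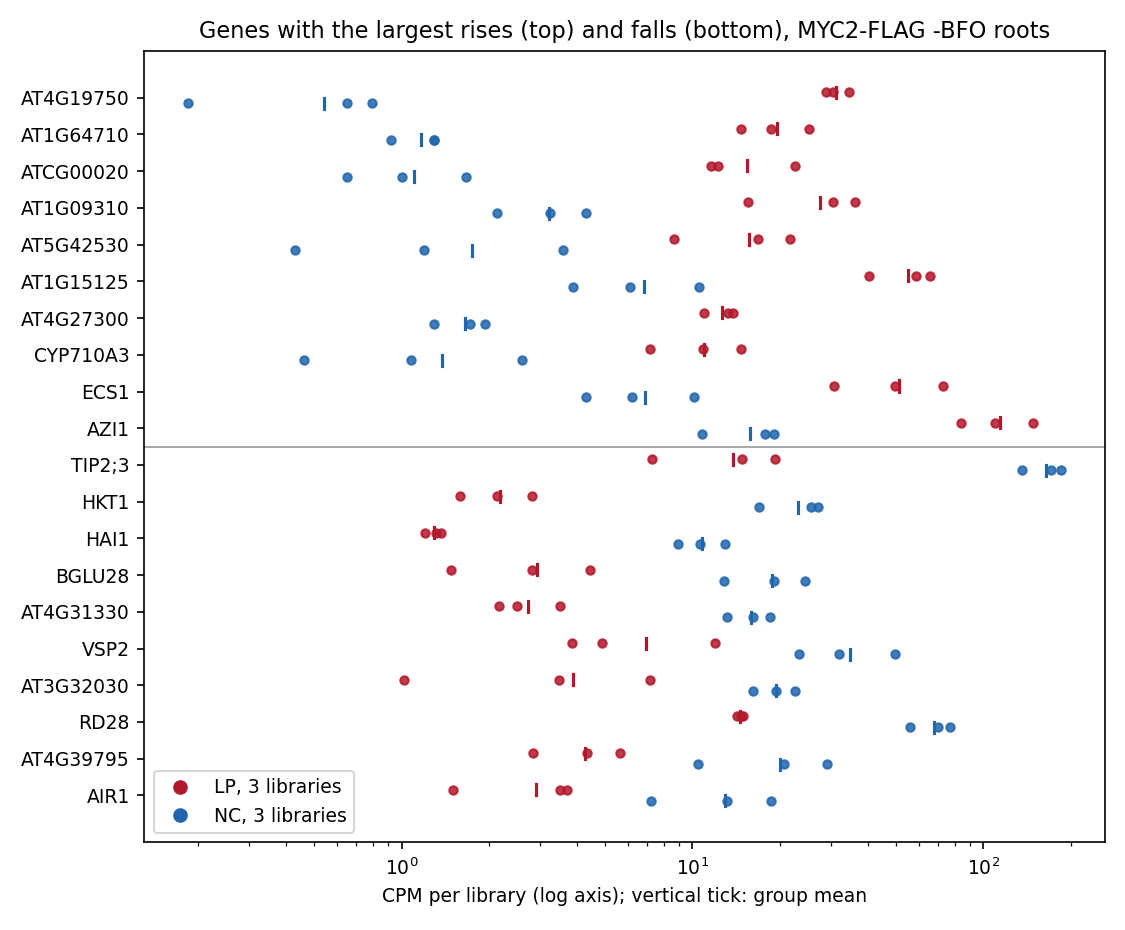
CPM of the 10 largest rises (above the line) and 10 largest falls (below it) in each of the 3 LP and 3 NC libraries, on a log axis, with the group mean as a vertical tick. Only genes without overlapping groups were eligible. They run from AT4G19750, at 28.7 to 34.5 CPM in LP and at most 0.791 CPM in NC, to AIR1.

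Among the gene lists by function, that of the photosynthetic apparatus had the most called members. Photosystem proteins and the chlorophyll a-b binding proteins of the light-harvesting antennae are encoded by nuclear genes that are strongly expressed in leaves and only weakly in roots. Of 63 members tested, 35 were called higher and 1 lower, against 2% and 2.49% of all genes, and the median log2 fold change was 1.1. Calls in the lists below are to be read against the same shares of all genes. At an unadjusted p under 0.05 by the edgeR test, 14.9% of all genes were higher and 13.7% lower. CAB1, an antenna protein of photosystem II, had 603, 492 and 558 CPM in LP roots, against 135, 170 and 147 CPM in NC roots (log2 fold change 1.87 ± 0.37). PSBQ-2, a subunit of the oxygen-evolving complex, had a log2 fold change of 1.80. LHCB2.3 had the largest, 2.93 ± 1.03, on 30 counts over the LP libraries and 4 over the NC libraries, with overlap. Its value ran from 2.23 to 3.96 with single libraries left out, and its call was lost by limma-voom and without 5 of the 6 libraries in turn. The lower member was ELIP2, an early light-induced protein, with 2 counts over the LP libraries and 16 over the NC libraries, a ratio of 0.141 (95% exact counting interval 0.0157 to 0.598). Its call was lost in 13 of the 15 alternatives that kept it.

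The chloroplast enzymes of carbon fixation moved with them. The list of Calvin cycle and photorespiration genes was added to those first set out. Of its 22 members, 11 were called higher and 0 lower by edgeR, with a median of 0.87. At an unadjusted p under 0.05, 17 were higher and 1 lower, against 14.9% and 13.7% of all genes tested, and DESeq2 and limma-voom called 11 each. FBA2, a plastid aldolase, had 33.8, 27.2 and 35.7 CPM in LP roots, against 5.54, 10.3 and 6.26 CPM in NC roots. GOX1, the glycolate oxidase of photorespiration, had 12.4, 12 and 15 CPM in LP roots, against 2.68, 5.25 and 3.13 CPM in NC roots. The log2 fold changes were 2.1 ± 0.36 and 1.79 ± 0.39. The small subunits of Rubisco were higher for RBCS1A (1.56 ± 0.32) and RBCS3B (1.36 ± 0.39) of 4 tested, and RBCS3B had 1.98 without NC replicate 2 and lost its call without LP replicate 3, NC replicate 1 or NC replicate 3.

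These rises were accompanied by a higher level of shoot-type RNA in general. The summed level of the photosystem list was 2198, 1681 and 2214 CPM in LP roots, against 666, 967 and 737 CPM in NC roots, a ratio of 2.57, and no other root library of the 8 root conditions exceeded 1503 CPM. Shoots of the same plants had between 221220 and 256600 CPM under LP and between 128870 and 162220 CPM under NC, so that LP roots held 0.865% and NC roots 0.541% of the shoot level. Beyond this list, 148 genes had at least 100 CPM in myc2-3 shoots and at least 100 times their level in myc2-3 roots, a choice made on libraries outside the contrast. Of these 148 genes, 74 were called higher and 1 lower in LP roots, with a median log2 fold change of 1.17. Together with the photosystem genes that met the same limits, such genes made up 25.6% of the 422 rises. Without them, 838 genes were called, 314 higher and 524 lower. Whether shoot tissue or RNA took part in these rises was not tested.

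The summed level of root markers was also higher in LP. The 12 root markers, among them Casparian strip, root hair and transporter genes, summed to between 3470 and 4022 CPM in LP roots and between 2281 and 2491 CPM in NC roots, against between 147 and 203 CPM in the shoots. No marker passed the call in edgeR, DESeq2 or limma-voom, while 3 had an unadjusted p under 0.05 with higher values, a share of 12 that is to be read against the 14.9% of all genes.

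**Figure D3:**
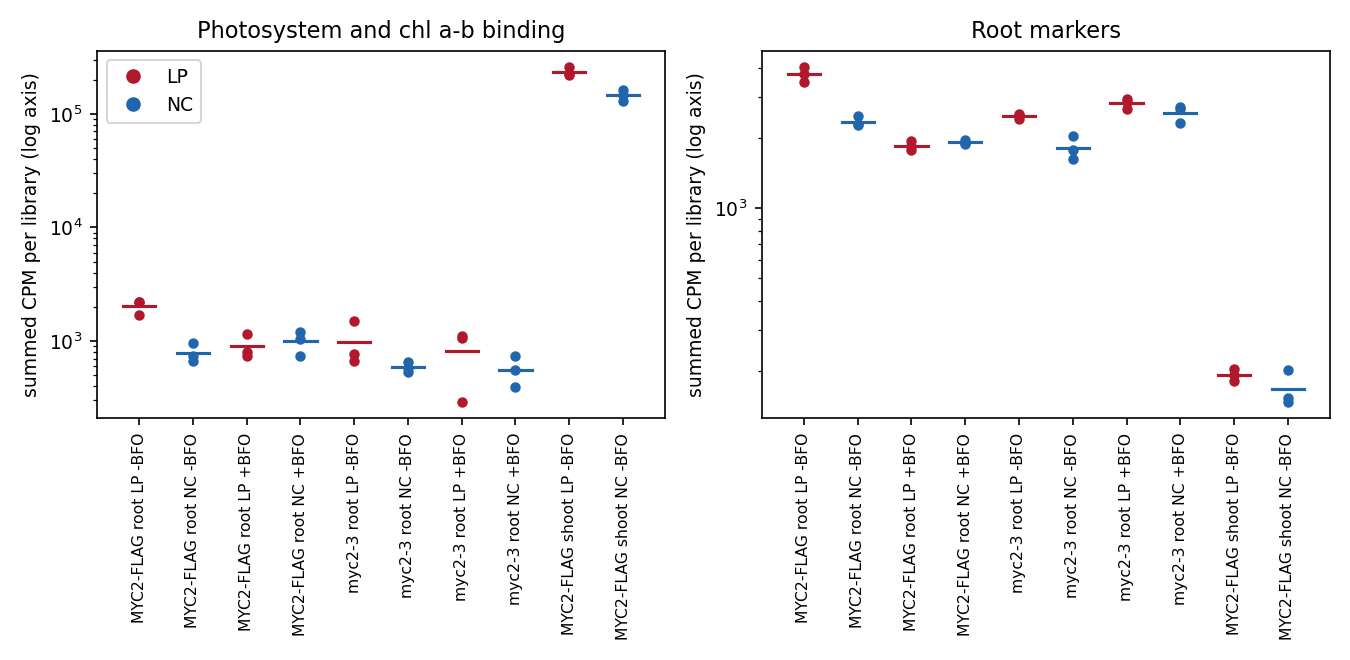
Summed CPM per library of the photosystem and chlorophyll a-b binding genes (left) and of the 12 root markers (right), on log axes, in 8 root conditions and in the −BFO shoots of MYC2-FLAG, with group means as bars. LP −BFO roots of MYC2-FLAG sit at 1681 to 2214 CPM in the left panel, above all other root libraries and far below the shoots.

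Organelle genomes moved unevenly. Of 81 chloroplast genome loci tested, 10 were called higher and 1 lower, against 2% and 2.49% of all genes. Yet their sum was 969, 567 and 536 CPM in LP roots, against 691, 640 and 780 CPM in NC roots, with overlap. ATCG00490 had a log2 fold change of 2.74 ± 0.46 and ATCG00280 one of 2.17 ± 0.34, both without overlap, on levels under 11 CPM, and ATCG00490 had 3.33 without NC replicate 1. Of 34 mitochondrial genome loci tested, 3 were called higher and 2 lower, against 2% and 2.49% of all genes. ATMG01080 (-1.60) was among the lower, and the median was -0.02. The share of gene counts on all mitochondrial loci, tested or not, was nevertheless higher. It was between 0.74% and 0.89% in LP libraries and between 0.26% and 0.44% in NC libraries. Most of these counts lay on ATMG00020, with 6619, 5614 and 5799 CPM in LP roots, against 3114, 1725 and 1818 CPM in NC roots. With organellar genes left out of the fit, 929 genes were called, 928 of them among the 947.

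Jasmonate genes went both ways. Of 35 tested, 5 were called higher and 1 lower, against 2% and 2.49% of all genes, and the median was 0.34. LOX3, a lipoxygenase that starts jasmonate synthesis, had 3.75, 6.2 and 2.32 CPM in LP roots, against 0.461, 0.144 and 0.324 CPM in NC roots. Its log2 fold change was 3.73 ± 1.17 on 124 and 10 counts, and the call was lost with limma-voom and without LP replicate 2, NC replicate 2 or NC replicate 3. The repressor gene JAZ10 had 2.95, 2.72 and 2.23 CPM in LP roots, against 0.554, 0.719 and 0.756 CPM in NC roots (log2 fold change 1.93 ± 0.52). JAZ9 had 1.95 ± 0.48, a call that limma-voom did not make.

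Further members, named after their values were seen, were the allene oxide cyclase gene AOC2 (1.92 ± 0.57) and the repressor gene JAZ2, which had 66.8, 62.8 and 53.5 CPM in LP roots, against 27.5, 23.95 and 26.5 CPM in NC roots (log2 fold change 1.23 ± 0.21). The single lower member was the output gene VSP2 described above. MYC3, a close relative of MYC2, had -0.46 ± 0.14, and VSP1 -0.46 ± 0.27, and neither passed the call. DESeq2 called 7 members and limma-voom 3.

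ABA response genes that passed the call were lower. Of 21 ABA response genes tested, 5 were called lower and 0 higher, with a median of -0.55, and 9 lower and 2 higher members had an unadjusted p under 0.05. The tools other than edgeR also called 5. HAI2, a second clade A phosphatase, had 7 counts over the LP libraries and 70 over the NC libraries (log2 fold change -3.05 ± 0.56, and -2.46 without NC replicate 2). NCED3, which makes the first committed precursor of ABA, had 1.25, 1.88 and 2.78 CPM in LP roots, against 13.0, 8.78 and 3.35 CPM in NC roots (log2 fold change -2.08 ± 0.53). The NC libraries of NCED3 were spread, and its lowest NC library came close to the highest LP library. The homeobox gene HB12 had -2.04 ± 0.32. RD22, a dehydration-responsive gene, had 0.89 with an adjusted p of 0.00155, below the fold required.

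Aquaporins, the channels that carry water through plasma and vacuolar membranes, were added as a list after the fall of TIP2;3 was seen. Of 28 tested, 7 were called lower and 1 higher, against 2.49% and 2% of all genes, with a median of -0.44. The abundant root channel TIP2;2 had 148, 185 and 248 CPM in LP roots, against 656, 768 and 712 CPM in NC roots (log2 fold change -1.88 ± 0.24). PIP1A had 272, 300 and 425 CPM in LP roots, against 831, 863 and 876 CPM in NC roots, and GAMMA-TIP had 150, 189 and 286 CPM in LP roots, against 486, 483 and 490 CPM in NC roots. Neither overlapped, and their log2 fold changes were -1.37 ± 0.15 and -1.22 ± 0.18. PIP2B (-1.11) and NIP6;1 (-1.09) fell too, whereas PIP2E rose (1.74 ± 0.29).

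Heat-shock genes that passed the call were lower too. Of 19 tested, 6 were called lower and 0 higher, against 2.49% and 2% of all genes, with a median of -0.85. The counts at an unadjusted p under 0.05 were 12 lower and 1 higher, and DESeq2 called 4 and limma-voom 6. The chaperone gene HSP70-4 had 23.7, 24.9 and 27.7 CPM in LP roots, against 72.2, 77.3 and 83.9 CPM in NC roots (log2 fold change -1.61 ± 0.35). MBF1C, a coactivator of thermotolerance, had 8.29, 4.13 and 5.38 CPM in LP roots, against 14.3, 17.62 and 19.9 CPM in NC roots (log2 fold change -1.56 ± 0.24). The small heat-shock protein gene HSP17.6A had 1.25, 0.282 and 0.556 CPM in LP roots, against 6.09, 1.94 and 5.51 CPM in NC roots (log2 fold change -2.69 ± 0.46, and -3.33 without LP replicate 1). HSP17.4 had 1 count over the LP libraries and 31 over the NC libraries, a ratio of 0.0363 (95% exact counting interval 0.00089 to 0.218). HSP101, the disaggregase of heat tolerance, had -0.85 with an adjusted p of 0.0067 and missed the fold required.

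Lectin genes were found among the rises and the falls. Of 37 mannose-binding and legume lectin genes, a list added after values were seen, 11 were called higher and 2 lower. Over all genes these shares were 2% and 2.49%. The median of the list was 0.21, with 22 members above 0 and 15 below. At an unadjusted p under 0.05 by the edgeR test, 14 were higher and 7 lower. AT5G49850 had 157, 108 and 130 CPM in LP roots, against 42.3, 37.6 and 25.7 CPM in NC roots. AT1G52120 had 203, 62.8 and 77.2 CPM in LP roots, against 23.0, 24.8 and 21.4 CPM in NC roots, with LP replicate 1 far above the others. AT5G49850 was not among the 4 largest changes of the list and was picked after its values were seen. The log2 fold changes were 1.90 ± 0.20 for AT5G49850 and 2.30 ± 0.27 for AT1G52120, and 1.60 for AT1G52120 without LP replicate 1. The lectin genes AT3G16530 (2.57) and AT5G03350 (2.36, and 3.05 without NC replicate 1) rose, and AT5G28520 fell to 2 counts in LP, against 46 in NC (ratio 0.0489, 95% exact counting interval 0.00575 to 0.187).

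AZI1, a lipid-transfer type protein of systemic immunity, lies in a row of near-identical genes whose reads can align to more than 1 of them. It had 84.0, 110 and 148 CPM in LP roots, against 19.0, 17.7 and 10.8 CPM in NC roots (log2 fold change 2.84 ± 0.38). Its neighbour EARLI1 had 48.7, 68.3 and 73.8 CPM in LP roots, against 11.3, 13.7 and 7.88 CPM in NC roots (log2 fold change 2.52 ± 0.45). AT4G12490 and AT4G12500 were higher by 3.51 ± 0.70 and 2.58 ± 0.53, while AIR1 of the same row was lower. Of 8 genes of the row tested, 4 were called higher and 1 lower, against 2% and 2.49% of all genes. By sign alone 4 lay above 0 and 4 below. Among 34 defence genes, AZI1 and CML38, a calmodulin-like gene (2.07 ± 0.63), were called higher and WRKY46 lower. Over all genes 2% were called higher and 2.49% lower. WRKY46 had 10.6, 4.22 and 6.31 CPM in LP roots, against 51.6, 32.3 and 4.0 CPM in NC roots, with overlap, and its call was lost with limma-voom and without LP replicate 2 or NC replicate 1, where the log2 fold change was -1.45. The call of CML38 was lost with limma-voom and without LP replicate 3, NC replicate 2 or NC replicate 3.

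Among nutrient genes, 3 of 31 nitrogen uptake and assimilation genes were called higher and 0 lower by edgeR, against 2% and 2.49% of all genes. Without overlap 18 lay higher, against 15.3% of all genes, with a median of 0.51. At an unadjusted p under 0.05, 20 were higher and 0 lower, and DESeq2 called 2 and limma-voom 1. The ammonium transporter gene AMT1;2 had 132, 96.8 and 152 CPM in LP roots, against 62.0, 65.4 and 59.8 CPM in NC roots (log2 fold change 1.02 ± 0.19), and its call was lost with limma-voom and without LP replicate 1, LP replicate 3 or NC replicate 3. The ferredoxin-dependent glutamate synthase gene GLU1 had 1.00 ± 0.25, a call lost with limma-voom and without LP replicate 3 or NC replicate 1. NRT2.2, a high-affinity nitrate transporter gene, had 11.6, 5.82 and 2.23 CPM in LP roots, against 0.554, 2.01 and 2.70 CPM in NC roots, with overlap. Its log2 fold change was 1.86 ± 0.46, was 1.2 without LP replicate 1 and was no longer called.

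Iron uptake genes were split. The iron transporter gene IRT1 had 494, 243 and 192 CPM in LP roots, against 107, 146 and 185 CPM in NC roots, and its call (1.08 ± 0.29) was lost without LP replicate 1, where the value was 0.57, without NC replicate 1 and with limma-voom. The regulator gene BHLH39 had 26.7, 22.7 and 17.803 CPM in LP roots, against 46.5, 61.4 and 67.4 CPM in NC roots (log2 fold change -1.39 ± 0.31, not called by DESeq2), and the peptide gene IMA1 was lower too (-2.17 ± 0.49). The phosphate-starvation phosphatase gene PAP17 was lower (-1.2 ± 0.34, not called without LP replicate 2). Of 10 sulfur-starvation genes, added after BGLU28 was seen, LSU1 (-1.42 ± 0.31), SDI1 (-1.28 ± 0.35) and BGLU28 were called lower and 0 higher, and 10 of the 10 had values below 0, against 48.6% of all genes tested. SDI1 lost its call with DESeq2 and without LP replicate 2 or NC replicate 3. LSU1 had 35.8, 13.5 and 23.0 CPM in LP roots, against 49.9, 55.2 and 87.1 CPM in NC roots. At an unadjusted p under 0.05, 6 were lower and 0 higher, and DESeq2 called 2 and limma-voom 4.

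Calls among sugar and clock genes were 1 of 26 sugar-starvation and dark-induced, 2 of 28 sugar transport and 1 of 27 clock genes, against 4.49% of all genes. Of 26 sugar-starvation and dark-induced genes, EXL1 was called higher (1.93 ± 0.63, and 2.61 without NC replicate 3), and that call was lost with limma-voom and without 4 of the 6 libraries in turn. The range of the list was -1.85 to 1.93 around a median of -0.18. In sugar transport, STP14 rose (1.19 ± 0.28, not called when only these 6 libraries were fitted), and SWEET11 had 0 counts in LP roots, against 25 counts in NC roots, at least 7.41-fold lower when 3 counts over the LP libraries are taken as the limit. The call of SWEET11 was lost without NC replicate 2 or any LP library. The morning clock gene LHY had 14.9, 17.9 and 15.4 CPM in LP roots, against 6.09, 5.03 and 8.75 CPM in NC roots (log2 fold change 1.30 ± 0.25), and was the single call among 27 clock genes.

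Of 29 light-signalling and shade-response regulators, 2 were called higher and 1 lower, against 2% and 2.49% of all genes. PIF4 and PIF7, phytochrome-interacting factors of the shade response, were higher (1.41 ± 0.31 with overlapping libraries, and 3.67 ± 0.56). PIF7 had 51 counts over the LP libraries and 4 over the NC libraries, and averaged 60.9 CPM in LP shoots and 37.9 CPM in NC shoots, so its root level was low in both lights. The cytokinin genes CYP735A1 (-1.75 ± 0.38), CKX4 (-1.43 ± 0.35) and IPT5 (-1.08 ± 0.20), which make or degrade the hormone, were lower, 3 of 14 tested, with 0 called higher. No cytokinin gene was higher at an unadjusted p under 0.05. IPT5 lost its call without LP replicate 3 or NC replicate 2. LBD29, an auxin-responsive regulator of lateral roots, was lower among 20 auxin genes (-1.76 ± 0.49, not called by DESeq2 or without LP replicate 2 or LP replicate 3), and RSL4, the root-hair growth regulator, among 8 root-hair genes (-1.12 ± 0.38, not called by DESeq2 or without any 1 of 4 libraries). LBD29 had -3.28 without LP replicate 1.

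No member was called by edgeR among 29 cell-cycle, 15 flavonoid, 9 hypoxia, 18 gibberellin and 25 Casparian strip and suberin genes. Cell-cycle genes had a median of 0.34, and 12 were higher and 0 lower at an unadjusted p under 0.05 (14.9% and 13.7% of all genes), with 0 called by DESeq2 and by limma-voom. In the flavonoid list 2 were higher and 1 lower at that level and DESeq2 called 1. In the hypoxia list these were 3 higher and 1 lower, in the gibberellin list 0 and 3, and in the Casparian strip and suberin list 1 and 4, and limma-voom called 1 in each of these lists. Among 271 ribosomal protein genes 3 were called lower, against 2.49% of all genes. Without overlap 69 lay higher and 12 lower, against 15.3% and 13.2% of all genes, with a median of 0.17.

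**Figure D4:**
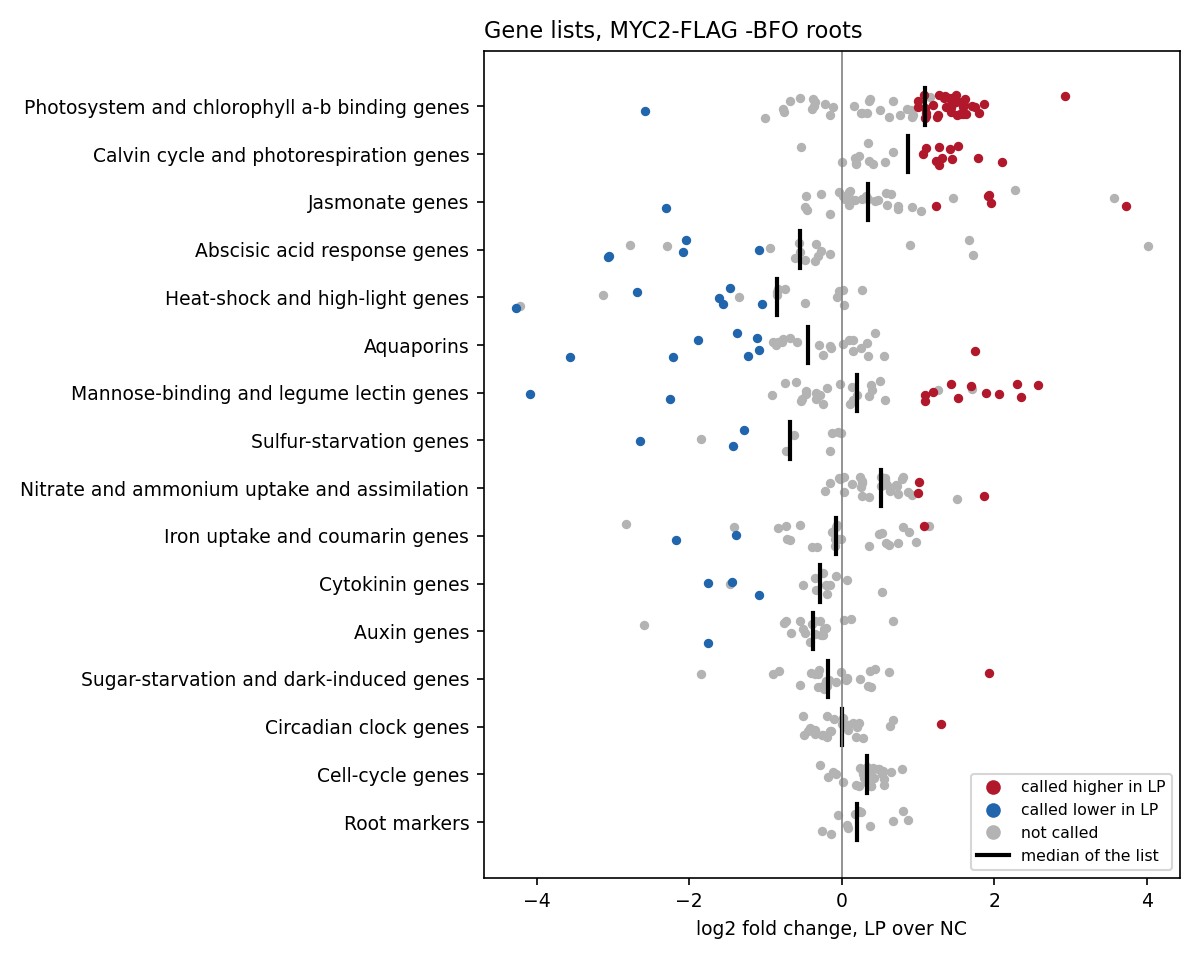
Log2 fold change of LP over NC for the members of 16 gene lists, 1 point per gene tested, with the list's median as a black bar and called genes in colour. The photosystem list has 35 members called higher around a median of 1.1, and the ABA and heat-shock lists have 5 and 6 called lower.

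The light response was set beside those of other plants of the study, which share no library with it. In MYC2-FLAG roots labelled +BFO, 248 genes were called between LP and NC (1.18%). Of these, 54 were also among the 947, 5.70% of the 947 and 21.8% of the 248, and 48 of the 54 moved the opposite way. The difference between both responses was called for 1413 genes (6.7%), among them 600 of the 947 and 19 of the 20 genes with the largest rises and falls. The 947 and the 20 were chosen on libraries that also enter this difference and the differences in response below. A high share among them is therefore partly built in by that choice. TIP2;3, for example, averaged 13.8 ± 6.08 CPM in LP −BFO and 164 ± 25.2 CPM in NC −BFO roots, against 235 ± 52.9 CPM in LP +BFO and 202 ± 62.7 CPM in NC +BFO roots (SD, n = 3 each). AZI1 averaged 114 ± 32.3 CPM in LP −BFO and 15.8 ± 4.41 CPM in NC −BFO roots, against 18.8 ± 4.13 CPM in LP +BFO and 94.0 ± 16.3 CPM in NC +BFO roots.

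Against myc2-3, the outcome turned on the BFO label. In myc2-3 roots labelled −BFO, 1062 genes were called (5.03%), and of the 203 shared with MYC2-FLAG −BFO roots (21.4% of the 947 and 19.1% of the 1062), 62 moved the same way and 141 the opposite way. The difference in response was called for 2144 genes (10.2%), 567 of the 947 among them. In myc2-3 roots labelled +BFO, a comparison added after the profiles were seen, 853 genes were called (4.04%). Of these, 284 were among the 947, which is 29.99% of the 947 and 33.3% of the 853, and 283 of the 284 moved the same way. The difference in response was called for 74 genes (0.351%), 19 of the 947 among them. None of the 20 leading genes was among them in edgeR, the only tool run for this comparison, although 10 had an unadjusted p under 0.05 and the lowest adjusted p was 0.0522, for ATCG00020. The libraries of each genotype carry their own number in the titles and stand in their own table, so that genotype and table cannot be told apart. The authors also report that in many samples of the mutant most reads came from a latent virus. From the clustering of samples they judged that the virus had no significant effect on plant expression. They list a greater sequencing depth for the mutant than for the complemented line. Reads counted on genes were between 6327979 and 10395159 per myc2-3 root library, against between 6866013 and 11045467 per MYC2-FLAG root library. Whether virus or depth took part in the differences between genotypes was not tested.

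Single genes showed the same split. HAI1 averaged 10.5 ± 3.55 CPM in LP and 0.821 ± 0.329 CPM in NC roots of myc2-3 labelled −BFO, and 2.25 ± 0.628 CPM in LP and 6.06 ± 1.24 CPM in NC roots of myc2-3 labelled +BFO (SD, n = 3 each). HKT1 had 6.34 ± 1.61 CPM in LP and 34.5 ± 5.41 CPM in NC roots of myc2-3 labelled +BFO. AT4G19750 was at 9.92 ± 5.05 CPM in LP and 0.431 ± 0.580 CPM in NC roots of myc2-3 labelled +BFO, and had 0 counts in LP and 20 in NC roots labelled −BFO. All 20 leading genes had the same sign in myc2-3 +BFO roots, where 16 were called, against 9 of 20 with the same sign in myc2-3 −BFO roots and 3 of 20 in MYC2-FLAG +BFO roots.

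**Figure D5:**
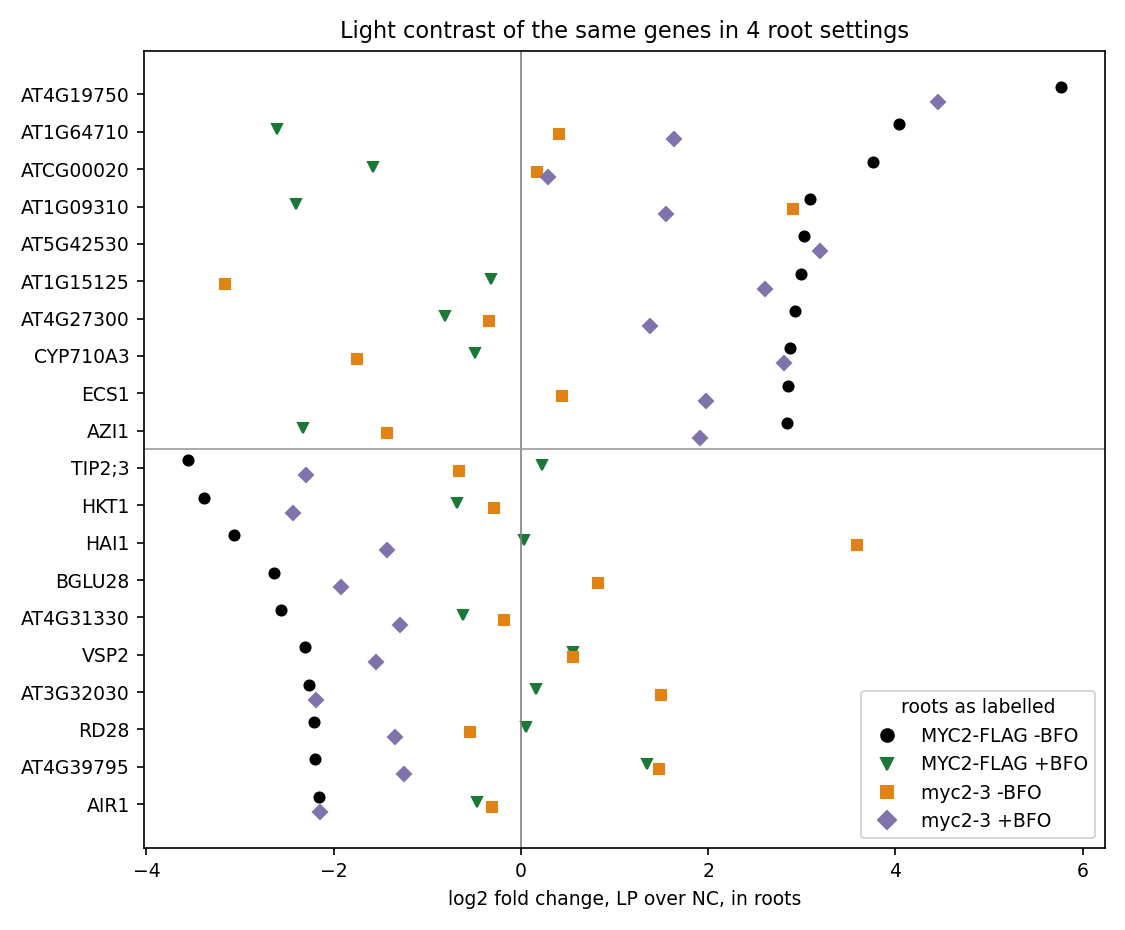
Log2 fold change of LP over NC for the 20 leading genes in roots of MYC2-FLAG −BFO (circles), MYC2-FLAG +BFO (triangles), myc2-3 −BFO (squares) and myc2-3 +BFO (diamonds); 6 points are left out where a group held 3 counts or fewer. Circles and diamonds lie on the same side of 0 for every gene drawn.

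The light response of −BFO shoots of MYC2-FLAG took in more genes. There 3980 genes were called (18.9%; 10.9% higher and 7.92% lower), of which 243 were among the 947 (25.7% of the 947 and 6.11% of the 3980), and 119 of these moved the same way and 124 the opposite way. The difference between root and shoot was called for 3917 genes (18.6%), including 463 of the 947 and 13 of the 20 leading genes. HKT1 averaged 4.29 ± 0.507 CPM in LP shoots and 0.378 ± 0.241 CPM in NC shoots, higher in LP, whereas it was lower in LP roots (difference in log2 fold change -6.75, adjusted p = 7.94e-12). Jasmonate genes were lower in LP shoots for 21 of 35 and higher for 1, with a median of -1.21, and sugar-starvation genes were lower for 19 of 26, with a median of -1.43.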

How the data were processed

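Total RNA was sequenced from 48 libraries in 16 conditions of 3. The authors mapped the reads to TAIR10 with TopHat2, assigned them to exons of each gene with htseq-count in its stranded setting, and deposited the raw counts, not normalized, of 32678 genes. The 5 summary lines per table stayed out of library sizes.

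The deposited counts were fitted with edgeR 4.0.16 (R 4.3.3). A gene needed over 100 counts across all libraries, which were scaled by TMM. A quasi-likelihood model (non-legacy) with 1 mean per condition took in all 48 libraries. P-values were Benjamini-Hochberg adjusted over the 21098 genes tested. Approximate standard errors were had from each log2 fold change and the F statistic of its test. Intervals and limits from counts cover counting error only. Counts were also simulated for this contrast, with the same fixed spread for every gene. A log2 change of 2 was given only to genes with at least 50 expected counts per NC library. The fit called 200 of the 200 genes so changed, and 12 genes given none, out of 21056. Smaller changes and genes with fewer counts were not simulated, so their recovery is not known.

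Named were MYC2, the 10 largest rises and falls without overlap with a mean count of at least 50, and up to 4 called members per list. PIP1A, GAMMA-TIP, PIP2B, NIP6;1, AT5G49850, AOC2, JAZ2, MYC3, VSP1, RD22, HSP101 and PIF7 in shoots were added after their values were seen. The genes and lists were chosen with earlier results of these data known. The lists of Calvin cycle genes, of the AZI1 row and of both organelle genomes were not among those first set out. The same holds for the aquaporin, lectin and sulfur-starvation lists. Lists by product name hold every matching gene, so the ribosomal list includes organellar and similar proteins. Names came from RefSeq TAIR10.1, which matched 20964 of the genes tested; coordinates and sequences are not printed because the build differs. Profiles for the correlations used log2 CPM with a prior count of 2. Replicate numbers were checked and did not pair the libraries.

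Alternatives were DESeq2 1.42.0, limma-voom (limma 3.58.1), DESeq2 size factors, 3 other filters, other sets of libraries, no organellar genes, glmTreat, a replicate block, the legacy fit, thinned counts and each library left out.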

Additional observations from a re-analysis of the deposited data

Results flagged for a closer look

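The light response of MYC2-FLAG −BFO roots was tested against that of 4 other sets of plants. It differed from myc2-3 roots labelled −BFO for 2144 genes, from myc2-3 roots labelled +BFO for 74 genes, from MYC2-FLAG roots labelled +BFO for 1413 genes and from MYC2-FLAG −BFO shoots for 3917 genes, by the interaction term of the edgeR fit in each case. The same-label comparison with myc2-3 thus gave more differences than the cross-label one, and the cause was not tested.

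Reads with more than 1 alignment, which enter no gene count, averaged 5.67% of all reads in LP −BFO roots of MYC2-FLAG, above every NC −BFO library (at most 2.88%). Where these reads came from was not tested.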

How the results depend on the processing

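The number of genes called between LP and NC in MYC2-FLAG −BFO roots stayed within 1.5 times of 947 in all settings but 2. It was 540 with the libraries of the compared groups only, where the count filter was also applied to those libraries alone. It was 92 with glmTreat against a 2-fold change, a stricter hypothesis by construction. Under glmTreat the differences in response fell to 382 genes against myc2-3 −BFO roots, 184 against MYC2-FLAG +BFO roots and 1337 against shoots. The cross-label comparison with myc2-3 +BFO roots was run with the ordinary test only, chosen after seeing the data, and gave 74 genes, to be set beside 2144 for the same-label one. With each library left out in turn, between 748 and 1003 genes were called for the light contrast, between 1784 and 2390 against myc2-3 −BFO roots, between 1108 and 1606 against MYC2-FLAG +BFO roots and between 3559 and 4002 against shoots. The share of higher genes among the calls, 44.6% in the reported fit, ran from 35.5% to 50.9% over these. With replicate numbers as a block 903 genes were called, 880 of them among the 947; the numbers did not pair the libraries (same-number correlations of -0.03, -0.04 and 0.09). No called gene among those refitted singly (the leading genes and up to 4 called members per list) changed sign in an alternative. Values of 1362 named-gene settings stayed on their side of the threshold and 163 lost the call, and 470 list counts stayed within 1.5 times while 100 moved. Genes with few counts are the least certain.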
